A study of Mus musculus with 6 samples.

Results

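Genes of the kinetochore and centromere were followed in sorted haematopoietic stem cells (HSCs), the self-renewing cells of the bone marrow from which blood lineages arise. The 10 members were taken by gene symbol out of 47937 genes in the deposited table, and all 10 were among the 11805 genes tested. They comprise the 4 subunits of the NDC80 complex (Ndc80, Nuf2, Spc24, Spc25), 4 centromere proteins (Cenpa, Cenpe, Cenpf, Cenpk) and 2 subunits of the MIS12 complex (Mis12, Dsn1). The cells came from wild type C57BL/6 mice aged 8 weeks, described in the protocols as male. Marrow was pooled from femora and tibia, freed of lineage-positive cells with magnetic beads, and sorted for a shared gate of LSK, CD34-, CD48-, Flt3- and Slam1+. Within this gate, CD93+ cells gave 3 libraries (CD93pos) and CD93- cells gave 3 libraries (CD93neg). No treatment was given, and polyadenylated RNA was sequenced from a low-input library kit. The labels call the replicates biological without tying a library to an animal, so p-values measure only the spread between these libraries.

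The kinetochore is the protein assembly that forms on each centromere and holds the chromosome to spindle microtubules during mitosis. It is built on nucleosomes that carry CENP-A in place of histone H3. An inner layer of centromere proteins sits on these nucleosomes, the MIS12 complex bridges outward, and the NDC80 complex grips the microtubule. In cycling cells the transcripts of most of these genes are most abundant from late S phase to mitosis. Adult HSCs are known for dividing rarely, so such transcripts are usually low in them.

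The promoter windows of 5 members are shown. Ndc80 and Nuf2 are the members unread in every CD93neg library, and Spc25, Cenpa and Cenpf are the others whose window held a match to the first motif below. Each window runs from 250 bases before to 50 bases after the RefSeq start on GRCm38.p6, and 9 of the 10 members had such a window. Capitals mark the 3 motifs searched on both strands. The first is the cell cycle homology region (CHR; TTTGAA or TTCGAA), known as an element of promoters active in G2 and mitosis. The second is the CCAAT box (CCAAT), bound by NF-Y. The third is an E2F site (TTTCCCGC, TTTGGCGC, TTTCGCGC or TTTGCCGC). No 2 motifs overlapped in the windows shown.
Ndc80 (chr17:71526808-71527107, minus strand): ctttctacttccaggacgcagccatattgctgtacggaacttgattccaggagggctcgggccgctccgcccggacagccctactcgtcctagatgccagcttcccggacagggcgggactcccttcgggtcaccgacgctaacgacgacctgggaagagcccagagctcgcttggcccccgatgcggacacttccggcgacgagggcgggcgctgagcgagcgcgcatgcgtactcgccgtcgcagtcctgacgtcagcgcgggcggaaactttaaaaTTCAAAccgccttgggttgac
Nuf2 (chr1:169531415-169531714, minus strand): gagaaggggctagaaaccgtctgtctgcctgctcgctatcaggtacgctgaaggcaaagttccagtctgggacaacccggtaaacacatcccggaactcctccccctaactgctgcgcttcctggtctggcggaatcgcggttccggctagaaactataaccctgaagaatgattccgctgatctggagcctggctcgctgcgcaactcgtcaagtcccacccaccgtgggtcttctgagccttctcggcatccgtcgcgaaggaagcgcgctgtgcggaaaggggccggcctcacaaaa
Spc25 (chr2:69206164-69206463, minus strand): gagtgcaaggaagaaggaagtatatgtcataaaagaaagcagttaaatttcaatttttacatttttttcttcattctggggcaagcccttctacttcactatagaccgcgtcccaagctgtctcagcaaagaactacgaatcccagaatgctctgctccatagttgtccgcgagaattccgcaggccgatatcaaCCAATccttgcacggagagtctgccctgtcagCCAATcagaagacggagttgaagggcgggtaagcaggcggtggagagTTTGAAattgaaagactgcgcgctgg
Cenpa (chr5:30666636-30666935, plus strand): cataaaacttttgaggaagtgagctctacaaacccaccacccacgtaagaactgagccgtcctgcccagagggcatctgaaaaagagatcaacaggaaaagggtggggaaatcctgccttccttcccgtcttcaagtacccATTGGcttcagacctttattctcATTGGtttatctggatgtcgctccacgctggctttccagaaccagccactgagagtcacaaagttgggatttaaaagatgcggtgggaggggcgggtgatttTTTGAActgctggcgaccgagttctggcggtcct
Cenpf (chr1:189688037-189688336, minus strand): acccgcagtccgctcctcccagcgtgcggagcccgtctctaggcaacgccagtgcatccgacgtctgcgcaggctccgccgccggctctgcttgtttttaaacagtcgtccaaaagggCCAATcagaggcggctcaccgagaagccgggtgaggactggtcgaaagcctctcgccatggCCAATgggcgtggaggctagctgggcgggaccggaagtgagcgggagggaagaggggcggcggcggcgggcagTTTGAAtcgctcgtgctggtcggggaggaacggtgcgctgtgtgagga

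The Ndc80 window held a CHR match that began 29 bases after the start, written on the minus strand as TTCAAA, and no CCAAT box. The Nuf2 window held no match to any of the 3 motifs. Spc25, Cenpa and Cenpf each held 1 CHR match, beginning 24, 16 and 2 bases after the start, together with 2 CCAAT boxes upstream. Among the windows not printed, Cenpe held 1 CCAAT box and Mis12 held 4, while Dsn1 held 1 E2F match, beginning 204 bases before the start. The 3 Cenpk windows held CCAAT boxes and no CHR match. A CHR match was thus present in 4 of the 9 members, and a CCAAT box in 6. Over all 32817 windows in the RefSeq table, 19.2% held a CHR match, 37.4% a CCAAT box, 2.26% an E2F match and 7.51% a CHR match together with a CCAAT box. These are letter matches only.

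Several features of the libraries bear on every value below. Reads assigned to genes numbered 5794528 to 9509304 in CD93pos and 2832653 to 4614396 in CD93neg. The share of tested genes without a read was 71.0%, 26.4% and 16.0% in CD93neg replicates 1, 2 and 3, compared with 2.10% to 13.5% in CD93pos. Against the label, the 4 Y-linked genes summed to 0.353, 0 and 0 CPM (counts scaled to 1000000 assigned reads) in the CD93neg libraries and to 186 to 231 CPM in CD93pos. All 14 neutrophil markers were unread in CD93neg replicate 1. Their sum was 14600 CPM in CD93neg replicate 2, 9646 CPM in CD93neg replicate 3 and 18.1 to 335 CPM in CD93pos, with the defining marker Ly6g at 0 in CD93pos. By log2 fold change, 12 of the 14 were lower in CD93pos and 2 higher. Elane was read in every CD93pos library (189, 87 and 625 reads) and in CD93neg only in replicate 2 (2096 reads). The 11 B lineage markers summed to 0.353, 11210 and 34020 CPM in CD93neg and to 73.7 to 100.4 CPM in CD93pos, where Cd79a, Ms4a1 and Pax5 were at 0. Of the 8 tested, 7 were lower in CD93pos by log2 fold change and 1, Cd79b, was higher. Cd79b had 584, 364 and 349 reads in CD93pos against 0, 786 and 340 in CD93neg. Vpreb1, not among the tested genes, was read only in CD93pos (7, 47 and 16 reads). The 9 mast cell and basophil markers summed to 635 to 1405 CPM in CD93pos and to 0.353, 354 and 245 CPM in CD93neg, where Prss34, Mcpt8, Ms4a2 and Fcer1a were at 0. Nearly all of these CD93neg reads were of Gata2, with 1, 1508 and 736 reads, compared with 5136, 2019 and 2217 in CD93pos. Cma1 and Tpsb2 were unread in every library. The 10 erythroid markers summed to 3373 to 4172 CPM in CD93pos and to 3551 to 3663 CPM in CD93neg, with Klf1 at 0 in CD93neg. Most of each sum came from Car2, whose mean normalized count was 14660 for CD93pos beside 15610 for CD93neg. The similar sums therefore mainly reflect this gene. Of the 8 tested, 7 were higher in CD93pos by log2 fold change and 1, Car2, was lower. By mean normalized count Rhd was also lower in CD93pos (52.3 against 946), owing to 1564 reads in CD93neg replicate 1. Cd93 itself, the receptor used for the sort, gave 906, 1001 and 550 reads across CD93pos, compared with 0, 419 and 38 across CD93neg. In normalized counts (reads divided by the library's size factor) the groups overlapped, since CD93neg replicate 2 had 399 and CD93pos replicate 3 had 338. Transcripts of proteins that the gate selects against were also read, and 2 of these are given here. Cd34 had normalized counts of 1270 to 1536 in CD93pos and of 3113, 0 and 1199 in CD93neg. Cd48 had 292.6 to 299.7 in CD93pos and 0, 139 and 105 in CD93neg, so it was higher in CD93pos without overlap. The part that any of these differences plays in the kinetochore values was not tested.

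Of the 10 members, more were read in each CD93pos library than in any CD93neg library, and their summed levels were higher. All 10 members were read in every CD93pos library, whereas 2, 4 and 8 were read and 8, 6 and 2 were unread in CD93neg replicates 1, 2 and 3. Of all tested genes, 71.0%, 26.4% and 16.0% were unread in these 3 libraries, so the members lay near that share in replicates 1 and 3. The reads of the members summed to 1116, 1174 and 1497 CPM in CD93pos replicates 1, 2 and 3, and to 113, 194 and 348 CPM in the CD93neg libraries. The group means were 1262 ± 205 and 218 ± 119 CPM (SD, n = 3 each), a ratio of 5.79, and of 4.67 without CD93neg replicate 1. The lowest CD93pos library thus lay above the highest CD93neg library. In bulk RNA, fewer cells in division and less of these transcripts per cell cannot be told apart. Neither can be told apart from incomplete detection or a different mix of cells in the CD93neg libraries.

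**Figure D1:**
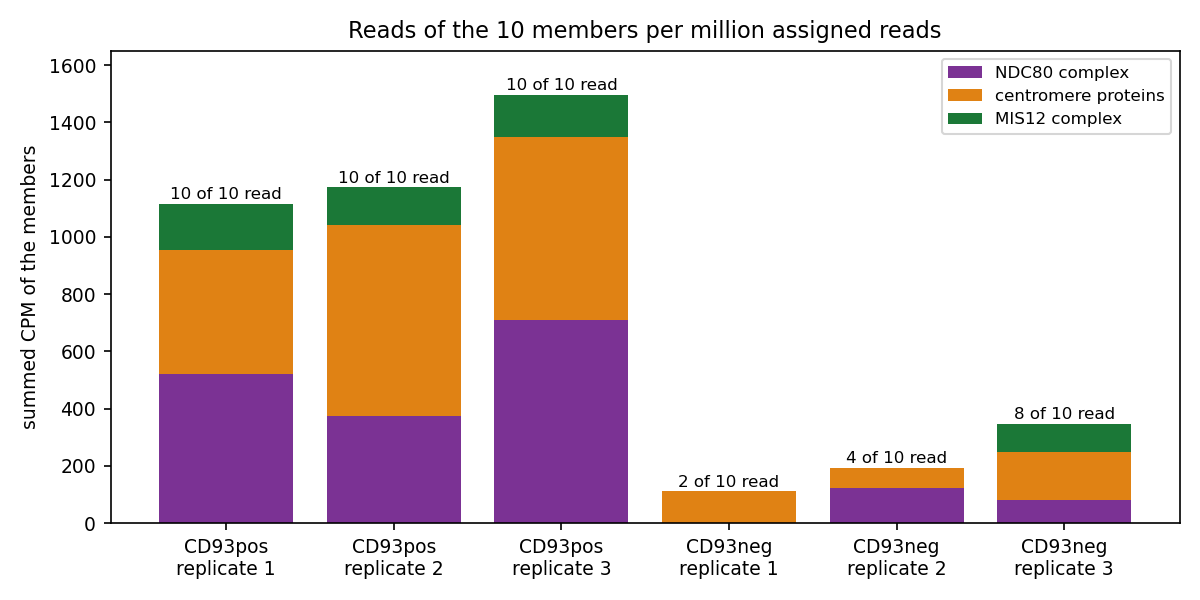
Stacked bars give the reads of the 10 members as CPM (y axis) in each of the 6 libraries (x axis), divided into NDC80 complex, centromere proteins and MIS12 complex. The 3 CD93pos libraries sum to 1116 to 1497 CPM and the 3 CD93neg libraries to 113 to 348 CPM, and the text above each bar counts the members with a read.

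No single member passed the test. limma, fitted to log2(normalized count + 1) of all 11805 genes with the Benjamini-Hochberg adjustment, called 0 of the 10 members and 0% of all tested genes at an adjusted p under 0.05. At an unadjusted p under 0.05, 5 of the 10 were higher in CD93pos, against 11.8% of all tested genes. All 10 log2 fold changes were positive, as were 79.9% of those of all tested genes. Their median was 5.90 on this log2 scale, beside 2.36 over all tested genes. Without CD93neg replicate 1 these medians were 5.40 and 0.43, and all 10 members stayed positive beside 60.1% of tested genes. In 8 of the 10, the normalized counts of the groups did not overlap, with CD93pos higher, which was so for 18.3% of tested genes. Leaving out CD93neg replicate 1 gave 8 again, beside 21.8%. The exceptions were Cenpk and Mis12.

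**Figure D2:**
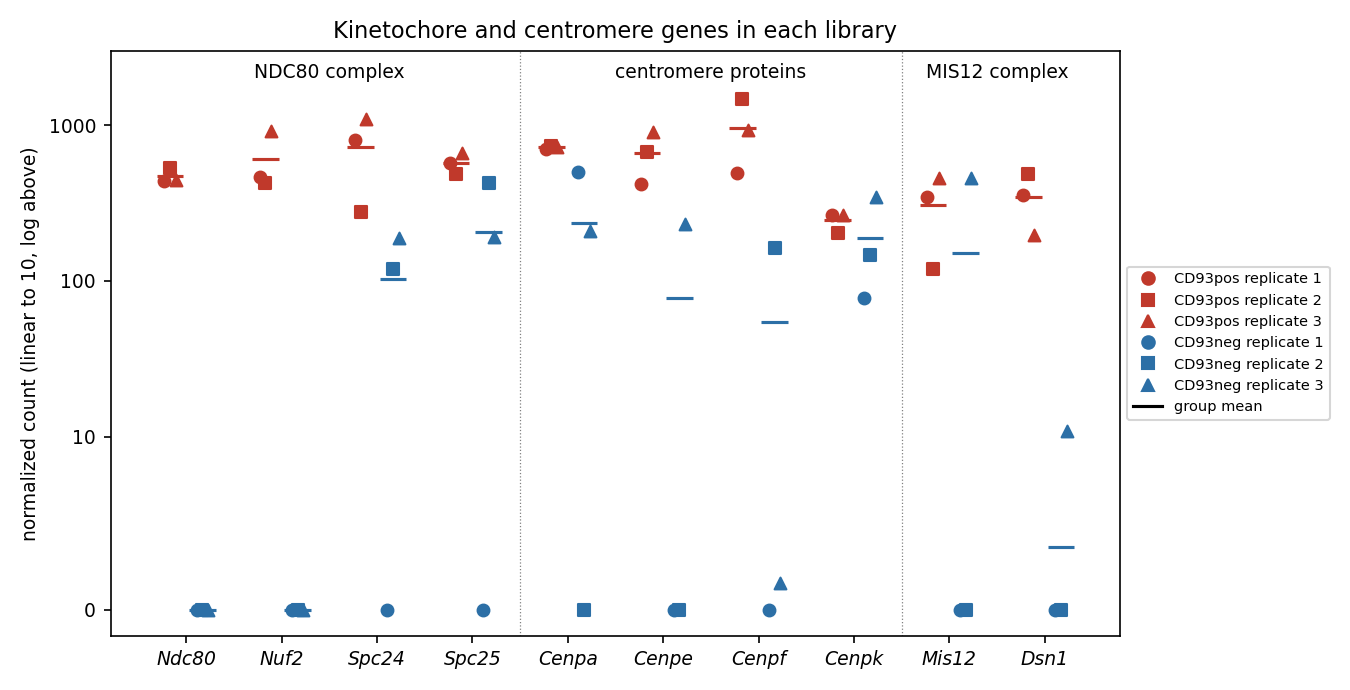
Normalized count (y axis, linear up to 10 and logarithmic above) of each member (x axis) in the 3 CD93pos and 3 CD93neg libraries, with horizontal lines at the group means. Ndc80 and Nuf2 are at 0 in every CD93neg library, and the groups overlap in Cenpk and Mis12.

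Within the NDC80 complex, the microtubule-binding pair Ndc80 and Nuf2 was not read in any CD93neg library. Ndc80, whose head domain contacts the microtubule, had 962, 671 and 725 reads in CD93pos replicates 1, 2 and 3 and 0 reads in each CD93neg library. Its normalized count was 472 ± 51.3 in CD93pos (SD, n = 3), and the 3 CD93pos values were close together at 440, 532 and 446. Against a floor of 3 reads over the summed CD93neg group, the CD93pos level was higher by at least 366-fold. Nuf2, the coiled-coil partner of Ndc80, gave 1012, 537 and 1499 reads across CD93pos and none in CD93neg. CD93pos replicate 3 was the highest, and the normalized count was 603 ± 277 (SD, n = 3). By the same floor Nuf2 was higher by at least 473-fold. Leaving out CD93neg replicate 2, the deepest CD93neg library, gave bounds of 204-fold and 264-fold. Being read in all CD93pos and no CD93neg libraries was shared by 4.6% of tested genes. The limma log2 fold changes were 8.88 (SE 1.33) for Ndc80 and 9.15 (SE 1.38) for Nuf2, both with an adjusted p of 0.0558. With every library thinned to 2832653 reads, the CD93pos libraries kept 277 to 334 reads of Ndc80 and 275 to 616 of Nuf2.

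Spc24 and Spc25, the inner pair that docks the NDC80 complex onto the kinetochore, were read in CD93neg replicates 2 and 3. Spc24 had 1745, 347 and 1777 reads in CD93pos replicates 1 to 3 against 0, 125 and 120 in the CD93neg libraries. CD93pos replicate 2 was low, but its normalized count of 275 still lay above the highest CD93neg value of 188. The group means were 722 ± 414 and 102 ± 94.9 (SD, n = 3 each). Spc25 was counted at 1240, 609 and 1072 reads in CD93pos against 0, 444 and 123 in CD93neg. The groups came close, since CD93neg replicate 2 had a normalized count of 422 and CD93pos replicate 2 had 483. The limma log2 fold changes were 4.46 (SE 2.49, adjusted p = 0.495) for Spc24 and 3.70 (SE 2.59, adjusted p = 0.585) for Spc25. Both values include the 0 of CD93neg replicate 1, and without that library they were 2.05 and 0.98. Neither passed the limma threshold.

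Per length, the inner pair was also the more abundant within CD93pos. Levels were set per kb of annotated exon, which counts the exons of every isoform. Spc24 had 63.7 ± 37.2 CPM per kb and Spc25 40.3 ± 7.04, beside 16.3 ± 1.29 for Ndc80 and 21.5 ± 10.1 for Nuf2 (SD, n = 3 each). Ndc80 and Nuf2 together made up 22.4%, 36.6% and 25.3% of the CPM per kb of the complex in CD93pos replicates 1, 2 and 3. They made up 0% in CD93neg replicates 2 and 3, where Spc25 contributed 74.1% and 45.3%. No subunit was read in CD93neg replicate 1, so it gave no share.

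**Figure D3:**
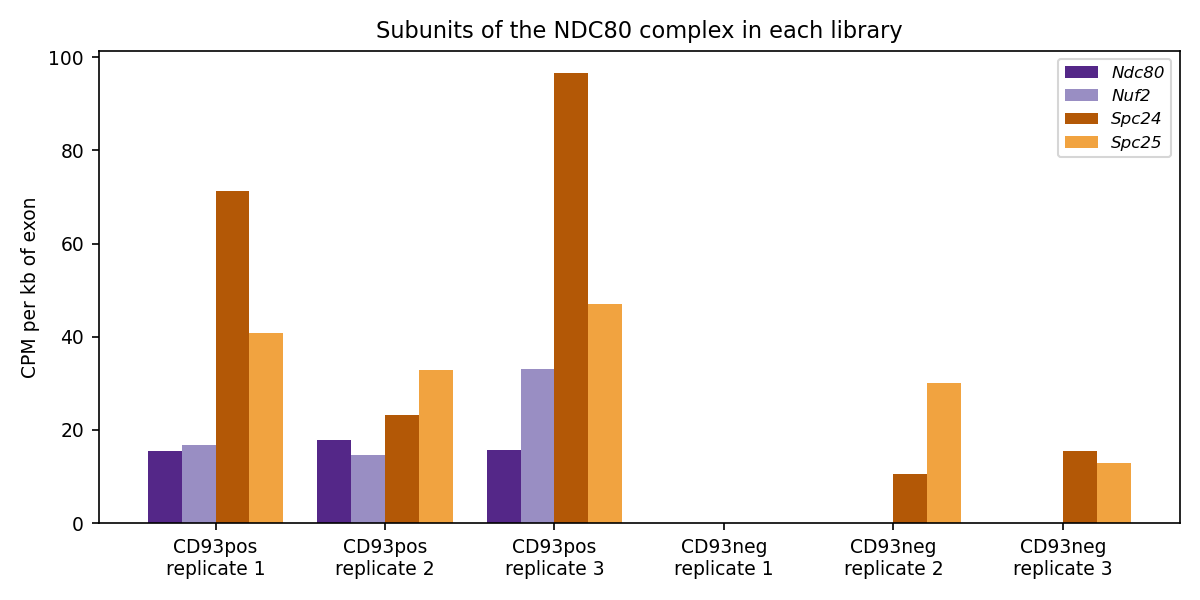
Bars give CPM per kb of exon (y axis) of Ndc80, Nuf2, Spc24 and Spc25 in each library (x axis). All 4 subunits are present in each CD93pos library, only Spc24 and Spc25 in CD93neg replicates 2 and 3, and none in CD93neg replicate 1.

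Each of the 4 centromere proteins was read in at least 1 CD93neg library. Cenpa encodes the histone H3 variant that marks centromeric chromatin. It had 1539, 928 and 1168 reads in CD93pos, and its normalized counts there were nearly equal at 704, 735 and 719. In CD93neg it had 276, 0 and 133 reads, with normalized counts of 501, 0 and 208. It was 1 of only 2 members with reads in CD93neg replicate 1, and without CD93neg replicate 2 its log2 fold change was 1.15. Over all libraries the log2 fold change was 3.93 (SE 2.59, limma adjusted p = 0.559). The groups did not overlap, and the difference did not pass the limma threshold.

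Cenpe and Cenpf belong to the outer, microtubule-facing side of the kinetochore. Cenpe, a kinesin that carries chromosomes toward the spindle equator, gave 921, 843 and 1460 reads across CD93pos, compared with 0, 0 and 149 across CD93neg. Only CD93neg replicate 3 held reads, and its normalized count of 233 lay below the 421 of the lowest CD93pos library. Cenpf, a large coiled-coil protein of the corona, had 1084, 1847 and 1512 reads in CD93pos replicates 1 to 3 against 0, 170 and 1 in the CD93neg libraries. Mean normalized counts were 963 ± 485 and 54.4 ± 92.9 (SD, n = 3 each), a ratio of 17.7, and of 11.8 without CD93neg replicate 1. The log2 fold changes were 6.68 (SE 2.51, limma adjusted p = 0.312) for Cenpe and 6.88 (SE 2.38, limma adjusted p = 0.254) for Cenpf. Neither passed the threshold.

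Cenpk, a subunit of the constitutive centromere-associated network, was the member read in all 6 libraries. It was counted at 581, 257 and 433 reads in CD93pos against 43, 154 and 220 in CD93neg. The groups overlapped, since the normalized count reached 344 in CD93neg replicate 3 and at most 267 in CD93pos. Mean normalized counts were 245 ± 36.0 and 190 ± 138 (SD, n = 3 each). The log2 fold change was 0.62 (SE 1.71, limma adjusted p = 0.850), below the median of all tested genes, and it turned to -0.68 after quantile normalization. In the annotation, 4.5% of the exon bases of Cenpk are shared with Ppwd1 on the opposite strand. Since the sources used here state no strand setting, reads from that stretch may belong to either gene.

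The 2 subunits of the MIS12 complex, which links centromere chromatin to the NDC80 complex, differed from each other. Dsn1 gave 773, 616 and 320 reads across CD93pos, compared with 0, 0 and 7 across CD93neg. Its mean normalized counts were 346 ± 146 and 3.65 ± 6.32 (SD, n = 3 each), and the groups lay far apart. The log2 fold change was 7.15 (SE 1.65, limma adjusted p = 0.0704). Mis12 had 755, 150 and 740 reads in CD93pos replicates 1 to 3 against 0, 0 and 291 in the CD93neg libraries. In normalized counts the groups overlapped, with 455 in CD93neg replicate 3 and 119 in CD93pos replicate 2. Its log2 fold change was 5.11 (SE 2.63, limma adjusted p = 0.466), and mean normalized counts were 306 ± 172 and 152 ± 263 (SD, n = 3 each). That log2 value was 3.64 without CD93neg replicate 1 or 2, 8.06 without CD93neg replicate 3 and 1.02 by DESeq2. Annotated exons of Mis12 share 7.7% of their bases with Derl2 on the opposite strand.

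Summed over its subunits, the NDC80 complex had 521, 374 and 709 CPM in CD93pos and 0, 123 and 80.9 CPM in CD93neg. The centromere proteins had 434, 669 and 639 CPM in CD93pos and 113, 70.2 and 167 CPM in CD93neg. Neither sum overlapped between the groups. The log2 ratio of the group means was 2.97 for the NDC80 complex and 2.31 for the centromere proteins. For the NDC80 complex it was 2.39 without CD93neg replicate 1 and 3.72 without CD93neg replicate 2. Within a library, the NDC80 complex had 1.20, 0.558 and 1.11 times the CPM of the centromere proteins in CD93pos and 0, 1.76 and 0.483 times in CD93neg. These within-library ratios overlapped between the groups. The MIS12 pair had 161, 132 and 148 CPM in CD93pos and 0, 0 and 99.2 CPM in CD93neg.

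Ordered by level per length in CD93pos, Spc24 and Spc25 stood first, followed by Cenpa at 27.6 ± 0.268 CPM per kb (SD, n = 3). Mis12 and Dsn1 had 23.2 ± 13.2 and 23.1 ± 9.23 CPM per kb, close to Nuf2. Cenpe had 17.3 ± 6.23 CPM per kb, just above Ndc80. Cenpf, at 13.9 ± 6.64, and Cenpk, at 10.6 ± 1.82 CPM per kb, were the lowest. Spc25 and Cenpa were the neighbours in this order whose libraries did not overlap, with 33.0 to 47.0 against 27.3 to 27.9 CPM per kb. All other neighbours overlapped.

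The calls depended on the test. DESeq2 on the recovered reads called 3 of the 10 members higher in CD93pos, against 5.58% of tested genes. They were Nuf2 (adjusted p = 0.000343), Ndc80 (adjusted p = 0.000584) and Dsn1 (adjusted p = 0.0295). The authors' deposited table, also from DESeq2, gave the same 3 members an adjusted p under 0.05, with log2 fold changes of 11.20, 10.85 and 6.58. It rests on the same reads, so this match is no separate support. edgeR's quasi-likelihood test called 0 of the 10 and 0% of tested genes, with 3 members at an unadjusted p under 0.05 and higher in CD93pos, beside 9.04% of tested genes. limma called Ndc80 and Nuf2 with a pseudocount of 0.5 (adjusted p = 0.0495 each, beside 1.73% of tested genes called higher). It called the same pair with TMM scaling (adjusted p = 0.0491 each, beside 2.21%). By limma without CD93neg replicate 3, Ndc80, Nuf2, Cenpe, Mis12 and Dsn1 each had an adjusted p of 0.0129, beside 15.9% of tested genes called higher. By limma without CD93pos replicate 2, Ndc80 and Nuf2 had adjusted p-values of 0.0196 and 0.0199, beside 6.56%. For any single value compared by exact permutation, 3 against 3 libraries cannot give a two-sided p below 0.1.

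**Figure D4:**
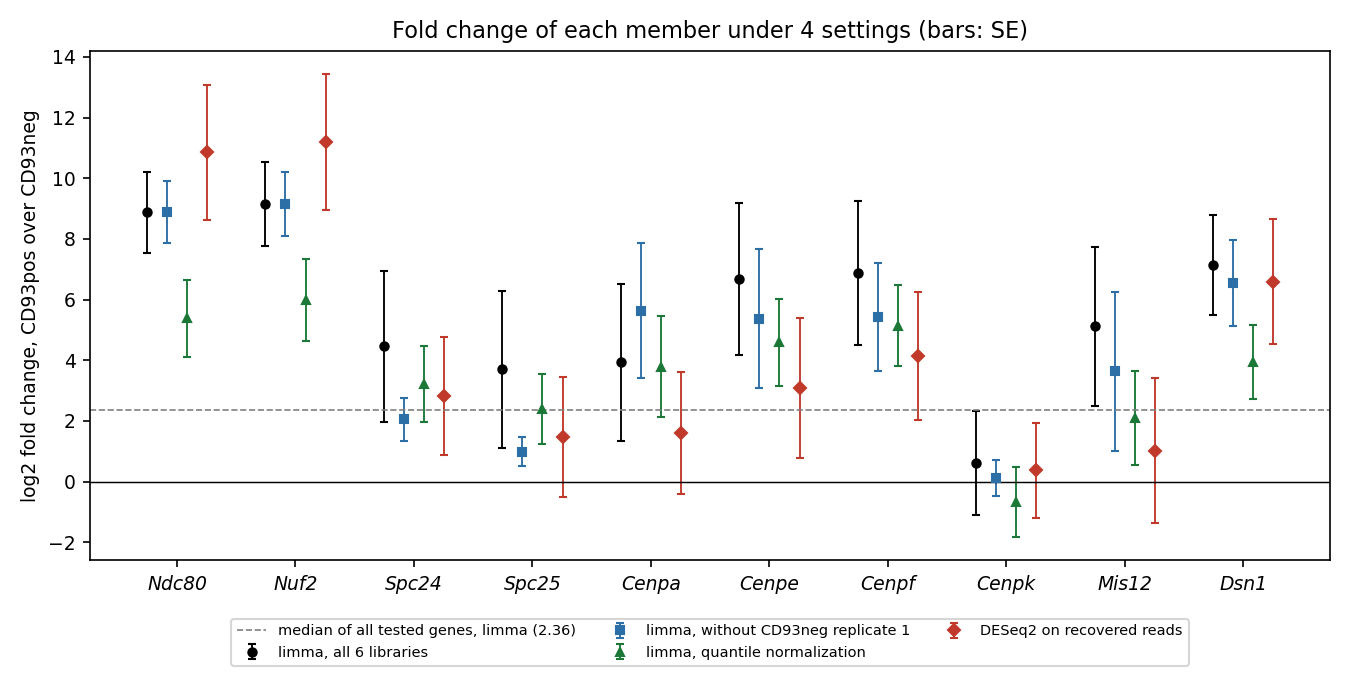
Log2 fold change of each member (x axis) toward CD93pos (y axis), with SE as bars, under 4 settings. Ndc80, Nuf2 and Dsn1 lie above 3.94 under each setting shown, Cenpk lies near 0, and the dashed line is the limma median of all tested genes, 2.36.

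Other kinetochore genes were mostly, but not all, higher in CD93pos by log2 fold change. Of 42 further genes listed by role, 41 were tested and limma called 0 in either direction, while at an unadjusted p under 0.05 it placed 18 higher and 0 lower, beside 11.8% and 0.381% of all tested genes. DESeq2 called 8 of the 41 higher and 0 lower, beside 5.58% and 0.39% of tested genes. The median log2 fold change of the 41 was 4.82, beside 2.36 over all tested genes. Of the 41, 38 (92.7%) were positive, beside 79.9% of all tested genes. In CD93neg replicates 1, 2 and 3, 7, 21 and 31 of the 42 were read, and in the CD93pos libraries 41 or 42. The reads of the 42 summed to 3413 to 4902 CPM in CD93pos and to 2031, 1628 and 2290 CPM in the CD93neg libraries. Of the 41 tested, 34, 20 and 11 were unread in the CD93neg libraries, beside 71.0%, 26.4% and 16.0% of all tested genes.

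Among 15 members of the constitutive centromere-associated network and its DNA-binding neighbours, 12 (80.0%) had a positive log2 fold change, close to the 79.9% of all tested genes, with a median of 5.05. Their summed reads overlapped between the groups, with 685 to 1005 CPM in CD93pos and 747, 420 and 696 CPM in CD93neg replicates 1, 2 and 3. Cenpi, an inner subunit on which loading of newly made CENP-A depends, had 312, 164 and 124 reads in the CD93pos libraries but none in CD93neg. That is higher by at least 93.1-fold, and by at least 52.0-fold when CD93neg replicate 2 was left out. Cenpq and Cenpx lay the other way. Cenpq was counted at 851, 356 and 659 reads in CD93pos against 1479, 551 and 262 in CD93neg, and its log2 fold change of -1.23 had an SE of 1.21 (limma, adjusted p = 0.631). Cenpx, a histone-fold protein that also acts in DNA repair, was counted at 1307, 595 and 850 reads in CD93pos against 573, 544 and 517 in the shallower CD93neg libraries. Its mean normalized counts were 531 and 789, and its log2 fold change of -0.52 had an SE of 0.97 (limma, adjusted p = 0.778). Both were therefore well read in CD93neg replicate 1, in which 34 of the 41 tested genes, and 71.0% of all tested genes, had no read.

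The remaining groups had medians above the 2.36 of all tested genes. Most of their genes were unread in CD93neg replicate 1, which enlarges these values. Without that library the median of all tested genes was 0.43, and medians of these lists are not given. Among the 4 partners of the MIS12 and NDC80 complexes the median log2 fold change was 4.18. Their summed reads overlapped between the groups, with 453.5 to 633.3 CPM in CD93pos and 533, 254 and 250 CPM in CD93neg. The sums of the lists that follow did not overlap, with CD93pos higher. Knl1, the scaffold that recruits checkpoint proteins, gave 675, 326 and 874 reads across CD93pos and none in CD93neg. That is higher by at least 291-fold, and by at least 162-fold when CD93neg replicate 2 was left out. Nsl1, a MIS12 complex subunit, gave 766, 216 and 478 reads across CD93pos, compared with 1510, 0 and 0 across CD93neg. Its mean normalized count was thus lower in CD93pos (272 against 914) while its log2 fold change, 4.22 with an SE of 3.17, was positive and did not pass the limma threshold. Of the 4 genes that load CENP-A onto chromatin, 3 were tested, with a median of 5.82.

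Among 7 genes of the outer kinetochore and corona the median log2 fold change was 5.34. Kntc1, a subunit of the complex that brings dynein to kinetochores, gave 286, 25 and 368 reads across CD93pos and none in CD93neg. Among 12 checkpoint and chromosomal passenger genes the median was 4.49. Ttk, the kinase that starts the spindle checkpoint, had 596, 553 and 276 reads in the CD93pos libraries but none in CD93neg. That is higher by at least 221-fold, and by at least 123-fold without CD93neg replicate 2. Aurkb, the kinase that corrects faulty microtubule attachments, had 1998, 1002 and 1976 reads in CD93pos replicates 1 to 3 against 2118, 271 and 378 in the CD93neg libraries. By mean normalized count Aurkb was lower in CD93pos (974 against 1565), with CD93neg replicate 1 at 3845. The log2 fold change was 0.20 by limma (SE 1.10, adjusted p = 0.927) and -0.68 by DESeq2. Mad1l1, a checkpoint protein, was counted at 1209, 187 and 1170 reads in CD93pos against 0, 813 and 497 reads in CD93neg. The mean normalized count was 474 in the former and 517 in the latter, while the limma log2 fold change was 2.21 (SE 2.86, adjusted p = 0.689).

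**Figure D5:**
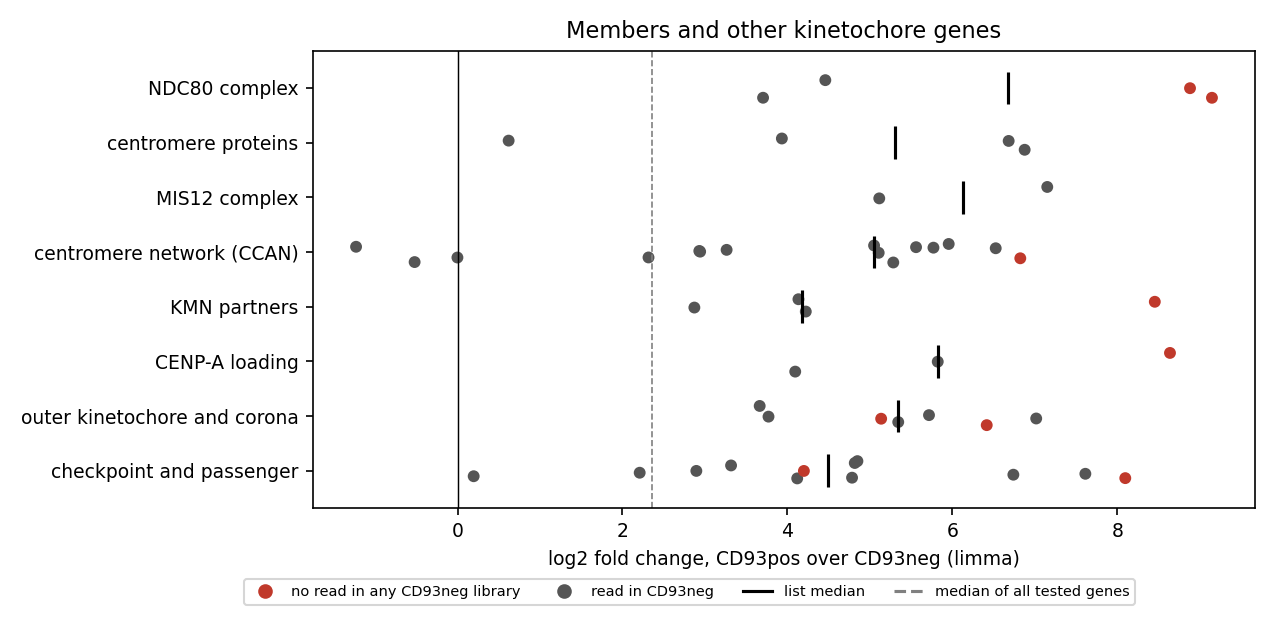
Each point is 1 tested gene, placed by its limma log2 fold change toward CD93pos (x axis) within its list (y axis), with a line at the list median and a dashed line at the median of all tested genes, 2.36. Red points are genes with no read in any CD93neg library, among them Ndc80, Nuf2, Knl1 and Ttk.

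The members also differed in how closely each followed their shared profile. Pearson's r between a member and the mean log2 profile of the 10, which includes that member, ran from 0.532 for Cenpa to 0.980 for Dsn1 over the 6 libraries, with Ndc80 at 0.931 and Nuf2 at 0.932. Outside the listed genes, the 5 whose profile was most like that mean were Baz1a (r = 0.998), Runx3 (r = 0.990), Rab27b, Mettl8 and C1galt1 (r = 0.989 each). Baz1a was counted at 398, 267 and 320 reads in CD93pos against 0, 3 and 10 in CD93neg. Rab27b gave 1499, 985 and 1374 reads across CD93pos, compared with 0, 0 and 13 across CD93neg. These correlations describe 6 libraries that differ in depth and in the share of unread genes, and carry no test.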

How the data were processed

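Per the submitters' processing notes, the tools were DESeq2 1.26, STAR, and featureCounts of Subread 1.5.0-p1, and the build was GRCm38 (mm10). The authors deposited a signal table, gene counts divided by 1 size factor per library, and a table with each gene's mean signal, log2 fold change and standard error, Wald score, p-value and adjusted p-value. Whole reads were recovered for 100% of the signal values above 0, within a tolerance of 0.001, and gave the CPM values. Two-sided tests were made with limma 3.58.1 and its trended eBayes step on log2(normalized count + 1), for genes whose mean over the libraries was 10 or more. P-values were adjusted by the Benjamini-Hochberg method. This scale understates changes of low genes and gives large values where a library is at 0. On the recovered reads, edgeR 4.0.16 called 0 genes and DESeq2 1.42.0 called 705. R 4.3.3 and Python 3.11.15 were used. The limma and edgeR fits, but not DESeq2, were also run on simulated counts. That simulation did not imitate the many unread genes of CD93neg replicate 1.

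Symbols are those of the authors. Of the 52 kinetochore genes, 5 carry older symbols there and were matched by gene ID. Gene positions and exon lengths came from GENCODE M21 on GRCm38, and promoter windows from RefSeq (GRCm38.p6). The members and lists were chosen with earlier results of these data known. Named besides the members were, for each further list, the gene with the smallest unadjusted p and genes whose group means lay against most of the list, up to 3 a list with the smallest p first, and the 5 genes most like the members' mean profile. A gene that this rule names, and 1 marker, are not reported here. Floors of 3 reads cover counting error only, and reads of amplified libraries are not independent molecules. Other pseudocounts, filters, scalings and tests were tried, as were a replicate block and leaving out each library. Library quality weights and thinning were added after seeing the data.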

Additional observations from a re-analysis of the deposited data

How the results depend on the processing

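limma called 0 of the tested genes, and 206 with a pseudocount of 0.5, 261 with TMM scaling and 705 with DESeq2. With 1 library left out it called 0 to 1880, with 774 without CD93pos replicate 2, 1 without CD93neg replicate 1 and 1880 without CD93neg replicate 3. The median log2 fold change of the members, 5.90, was 4.40 with a pseudocount of 5, 3.86 after quantile normalization, 3.05 by edgeR and 2.96 by DESeq2, and 5.40 to 7.08 with 1 library left out. Cenpk turned to -0.68 after quantile normalization; no other member changed sign under any setting run. The log2 ratios of summed CPM moved by less than 1 SD under all 9 settings run for each. For the NDC80 complex that SD was 2.75, nearly as large as the ratio of 2.97, so this is a weak criterion. The ratio was 2.39 to 3.72 over these settings. For the centromere proteins the SD was 0.502 and the ratio 1.90 to 2.67. Members unread in every CD93neg library numbered 2. After thinning the number was again 2, but thinning leaves a 0 at 0, so it could not fall. Without CD93neg replicate 3 it was 5. The matching share of all tested genes is not given. Taken singly, CD93neg replicates 1 and 2 left 71.0% and 26.4% of tested genes unread, so the 5 are not read as a trait of the members. The causes were not tested.

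Replicate numbers are shared between the groups, but the labels do not say that they pair libraries, and deviations of same-numbered libraries correlated at 0.0372, 0.0191 and 0.0605. Each library correlated best with its own number, but these correlations were too weak to tell whether libraries were paired, and the design does not say. With the replicate block limma called 24 genes and no member, and the members' median stayed at 5.90. Depth and unread genes in CD93neg replicate 1 limit all comparisons.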
